A study of Mus musculus with 11 samples.

Results

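Aminoacyl-tRNA synthetases are the enzymes that join each amino acid to its transfer RNA before translation. The group examined here holds 38 genes, listed by name: 20 genes of cytosolic enzymes, 16 of mitochondrial enzymes and 2 of the non-enzymatic scaffold proteins *Aimp1* and *Aimp2*. All 38 were found among the 11118 genes of the normalized table and the 24421 genes of the count table, and all 38 passed the filter on low counts (above 1 CPM in at least 4 pools), which left 10951 genes to test. RNA-seq measured each of them in 11 pools of cDC1s, the type 1 subset of conventional dendritic cells, which were isolated by sorting from B16 melanomas grown in mice.

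Of the 11 pools, 4 were controls without Cre, 4 were XBP1ΔDC and 3 were XBP1ΔDCIRE1truncDC. Control replicates 1 to 3 were XBP1 fl/fl, and control replicate 4 was XBP1 fl/fl, IRE1 fl/fl, so floxed *Xbp1* was shared by every pool. XBP1ΔDC mice carried XBP1 fl/fl with CD11c-CRE, in which Cre removes exon 2 of *Xbp1*. XBP1ΔDCIRE1truncDC mice carried CD11c-CRE together with both floxed genes, XBP1 fl/fl and IRE1 fl/fl, so that exons 20 and 21 of *Ern1*, the gene of IRE1, are also removed and the protein left lacks its RNase domain. Cre was driven by the *Itgax* promoter and so acted in all cells that express CD11c, not in cDC1s alone. Mice were 6 to 14 weeks old, of both sexes and on a C57BL/6 background, tumors were taken after 10 to 15 days, and each pool combined 2 to 4 mice. Both comparisons with control used the same 4 control pools and are therefore not independent of each other.

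Cytosolic and mitochondrial synthetases are encoded in the nucleus by mostly separate genes, with *Gars* and *Kars* supplying both compartments. *Eprs* encodes a single protein that charges glutamate and proline, and *Farsa* and *Farsb* encode the subunits of the cytosolic phenylalanine enzyme. ATF4 is the transcription factor made when kinases such as PERK and GCN2 phosphorylate eIF2α. It raises transcription of genes for amino acid import, amino acid synthesis and many cytosolic synthetases, usually through a C/EBP-ATF response element. IRE1 and its product XBP1s form another arm of the unfolded protein response. In the accounts below, 13 cytosolic genes known as ATF4 targets (*Aars*, *Cars*, *Eprs*, *Gars*, *Iars*, *Lars*, *Mars*, *Nars*, *Sars*, *Tars*, *Vars*, *Wars* and *Yars*) are kept apart from the other 7 (*Dars*, *Farsa*, *Farsb*, *Hars*, *Kars*, *Qars* and *Rars*).

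Promoter sequences from RefSeq (GRCm38.p6, 250 bases before to 50 after the start of transcription) matched 29 of the 38 genes. Those not matched were *Cars*, *Hars*, *Lars*, *Nars*, *Rars*, *Vars*, *Wars*, *Hars2* and *Pars2*. The C/EBP-ATF element was searched as TGATGNAA on both strands, a pattern held by 3.97% of all 32851 promoters of that length. It was present in 5 of the 13 matched cytosolic genes, in 0 of the 14 matched mitochondrial genes and in neither scaffold gene. All 5, *Aars*, *Gars*, *Iars*, *Tars* and *Yars*, belong to the 8 matched genes of the ATF4-target list, and 0 of the 5 matched cytosolic genes outside it held the pattern. The XBP1-type element TGACGTGG (0.676% of all promoters) and the ER stress element, CCAAT followed after 9 bases by CCACG (0.119%), searched likewise on both strands, matched 0 of the 29 genes. Of the 22 matched genes of the other ATF4-associated list described below, 6 held the C/EBP-ATF pattern. Matched ATF4-target genes without it also stood higher in XBP1ΔDCIRE1truncDC than in control. Log2 fold changes were 0.40 for *Eprs*, 0.44 for *Mars* and 0.43 for *Sars*, and from 0.35 (*Tars*) to 0.71 (*Aars*) for the 5 with it. A relation between the pattern and the fold changes was not tested. The windows with the C/EBP-ATF pattern are printed here. Each is read on the strand of its gene, with the pattern or its reverse complement in capitals and positions counted from 1 at the start of transcription.
Aars, alanine, chr8:111033722-111033871, forward strand, matches at positions -112 to -105 and 10 to 17: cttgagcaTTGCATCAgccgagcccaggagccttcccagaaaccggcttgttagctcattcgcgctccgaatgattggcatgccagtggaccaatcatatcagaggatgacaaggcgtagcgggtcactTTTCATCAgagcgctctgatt
Gars, glycine, chr6:55037911-55038030, forward strand, match at positions -30 to -23: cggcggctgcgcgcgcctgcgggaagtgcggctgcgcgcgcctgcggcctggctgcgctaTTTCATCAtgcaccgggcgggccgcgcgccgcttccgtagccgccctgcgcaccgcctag
Iars, isoleucine, chr13:49682040-49682159, forward strand, match at positions 8 to 15: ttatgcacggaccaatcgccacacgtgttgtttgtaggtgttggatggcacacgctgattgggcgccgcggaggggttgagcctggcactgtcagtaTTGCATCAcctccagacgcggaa
Tars, threonine, chr15:11399629-11399748, reverse strand, match at positions -15 to -8: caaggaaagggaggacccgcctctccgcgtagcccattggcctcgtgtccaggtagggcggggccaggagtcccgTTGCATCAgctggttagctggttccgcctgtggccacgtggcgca
Yars, tyrosine, chr4:129189813-129189932, forward strand, match at positions 4 to 11: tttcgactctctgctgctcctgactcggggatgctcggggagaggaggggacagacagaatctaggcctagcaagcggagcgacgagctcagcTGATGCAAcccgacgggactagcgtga
The core letters were TTGCATCA in *Iars* and *Tars*, TTTCATCA in *Gars*, both of these in *Aars*, and TGATGCAA in *Yars*. A match of letters is a description and does not show that a factor was bound.

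The files held 22173308 to 26843486 counts per pool in control, 21889074 to 25334289 in XBP1ΔDC and 21089065 to 26019797 in XBP1ΔDCIRE1truncDC. CPM here are counts relative to the TMM-scaled library size. All 12 cDC1 markers were detected in all groups, with a summed level of 9485 to 11274 CPM per pool, whereas T cell, B cell and neutrophil markers summed to at most 9.38 CPM. Markers of cDC2s, the other conventional subset, summed to 89.0 to 144 CPM. Macrophage markers summed to 29.2 to 59.8 CPM in control, 31.8 to 116 CPM in XBP1ΔDC and 40.3 to 62.5 CPM in XBP1ΔDCIRE1truncDC, highest in XBP1ΔDC replicate 3. *Xbp1* stood at 244, 249, 254 and 271 CPM in the controls, at 130.1, 152, 161 and 165 CPM in XBP1ΔDC, and at 212, 236 and 179 CPM in XBP1ΔDCIRE1truncDC, listed here and below in the order of the replicate numbers. It fell by 0.74 on the log2 scale in XBP1ΔDC (edgeR adjusted p = 0.00167) and had a log2 fold change of -0.28 in XBP1ΔDCIRE1truncDC (edgeR adjusted p = 0.324). *Ern1* was at 19.0, 14.1, 13.1 and 9.82 CPM in control, at 9.74, 15.6, 12.9 and 11.5 CPM in XBP1ΔDC, and at 21.4, 17.0 and 26.0 CPM in XBP1ΔDCIRE1truncDC. Counts per gene do not separate transcripts with and without the floxed exons, so neither gene fully checks its genotype label. In bulk samples fewer cells of a type and less RNA per cell cannot be told apart.

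In control tumor cDC1s, cytosolic synthetase transcripts were more abundant per length than mitochondrial ones. The median level was 24.9 CPM per kilobase of merged exons over the 20 cytosolic genes (6.19 to 71.8) and 4.60 over the 16 mitochondrial genes (0.516 to 184). The exception was *Lars2*, the mitochondrial leucine enzyme (chr9:123366927-123462666 of GRCm38), which led all 38 genes at 184 ± 4.49 CPM per kilobase (SD, n = 4). It was followed by *Gars*, the glycine enzyme, at 71.8 ± 5.48, *Vars*, the valine enzyme, at 61.2 ± 1.99, and *Nars*, the asparagine enzyme, at 49.2 ± 5.76 CPM per kilobase. These 4 did not overlap in their control pools. Before division by length, *Vars* was at 352, 354, 334 and 333 CPM in control, 332, 342, 365 and 269 CPM in XBP1ΔDC and 382, 375 and 303 CPM in XBP1ΔDCIRE1truncDC, and its groups overlapped. Of 50-base stretches of *Lars2* exons, 0.196% were shared with another annotated transcript. Sequence outside annotated transcripts was not searched, so whether reads from elsewhere added to the level of *Lars2* was not tested. The lowest levels were those of 3 mitochondrial genes, *Mars2* for methionine at 0.516 ± 0.0872, *Nars2* for asparagine at 0.999 ± 0.247 and *Wars2* for tryptophan at 1.01 ± 0.224 CPM per kilobase. *Nars2* and *Wars2* overlapped in their pools, and both lay above *Mars2*. With the length of the transcript of longest coding sequence in place of merged exons, the medians were 34.4 and 7.47 CPM per kilobase, and *Lars2*, *Gars* and *Vars* remained the leading 3 genes, at 525, 94.1 and 84.8.

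**Figure D1:**
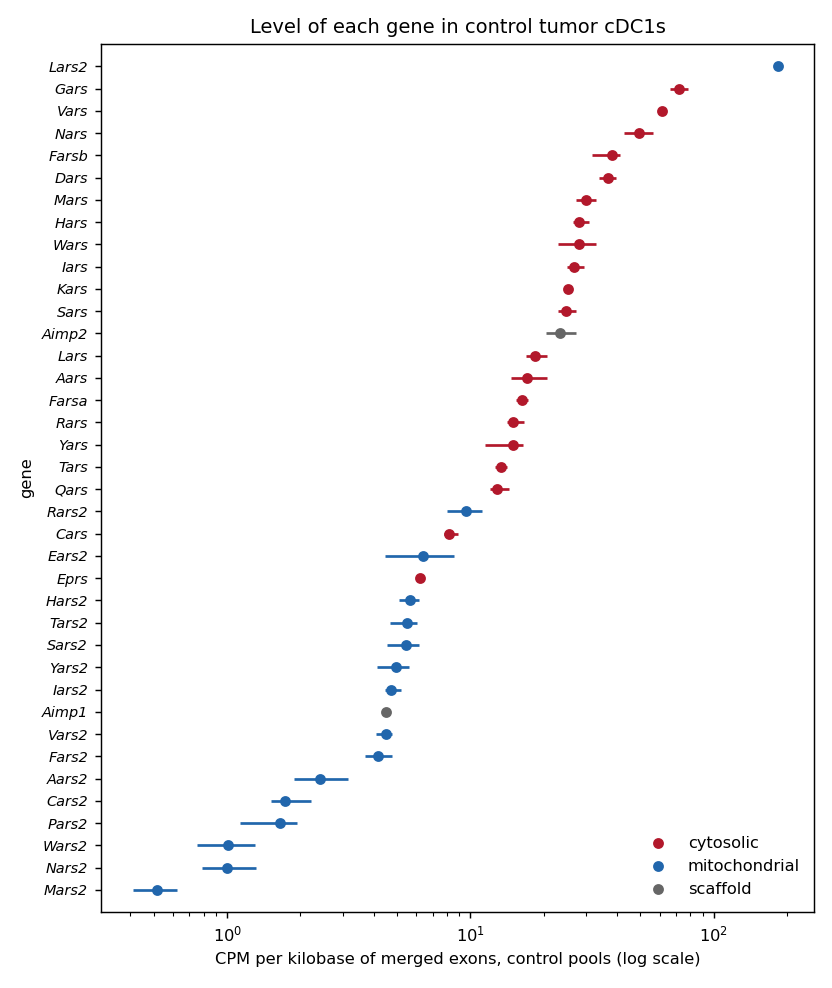
Level of each gene in control tumor cDC1s, as TMM-scaled CPM per kilobase of merged exons on a log scale, with points for the mean of 4 pools and lines from the lowest to the highest pool. Mitochondrial genes (blue) fill the lower end, with *Lars2* at 184 as the exception at the top.

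To ask how loss of XBP1 alters these transcripts, XBP1ΔDC were compared with control cDC1s. The genes that stood higher were cytosolic: 8 of 20 had an unadjusted p under 0.05 and were higher, 0 were lower, and the median log2 fold change was 0.22. Over all genes tested, 2.67% were higher and 4.95% lower at that threshold, and the median was 0.00. All 8 genes belong to the ATF4-target list, whose median log2 fold change was 0.30 over 13 genes, against 0.05 over the 7 other cytosolic genes. Of the 16 mitochondrial genes 0 reached that threshold, and their median was -0.01. After Benjamini-Hochberg adjustment over all genes, edgeR called 0 of the 38 genes, where it called 0.895% of all genes, and limma voom and DESeq2 also called 0. The ATF4-target list was chosen with earlier results of these data known. Differences between cytosolic and mitochondrial genes, or between cytosolic genes inside and outside that list, were not tested.

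*Gars* had the smallest p. Its level was 232, 244, 214 and 206 CPM in control and 275, 279, 285 and 263 CPM in XBP1ΔDC. Every XBP1ΔDC pool lay above every control pool, with a log2 fold change of 0.30 (SE 0.0930, edgeR adjusted p = 0.306). *Yars*, which charges tyrosine, was at 97.6, 97.6, 91.3 and 68.5 CPM in control and at 125, 125, 127 and 108 CPM in XBP1ΔDC. Its log2 fold change of 0.45 was the highest of the 38 genes (SE 0.146, edgeR adjusted p = 0.350), and control replicate 4 and XBP1ΔDC replicate 4 were the lowest pools of their groups. *Sars*, which charges serine, was at 127, 139, 126 and 117 CPM in control and at 170.5, 159, 169.7 and 155 CPM in XBP1ΔDC. These groups did not overlap either, and the log2 fold change was 0.36 (SE 0.119, edgeR adjusted p = 0.375). The other 5 genes at unadjusted p under 0.05 were *Aars* with a log2 fold change of 0.41, *Tars* with 0.36, and *Cars* (cysteine), *Eprs* and *Nars* with 0.30, 0.30 and 0.26. In 7 of the 20 cytosolic genes, *Aars*, *Cars*, *Eprs*, *Gars*, *Sars*, *Tars* and *Yars*, the lowest XBP1ΔDC pool lay above the highest control pool, which held for 1.63% of all genes, while 0 of the 38 lay wholly below control, as 3.67% of all genes did. *Vars* and *Wars*, also in the ATF4-target list, had log2 fold changes of -0.07 and 0.05 (edgeR adjusted p = 0.959 and 0.984).

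**Figure D2:**
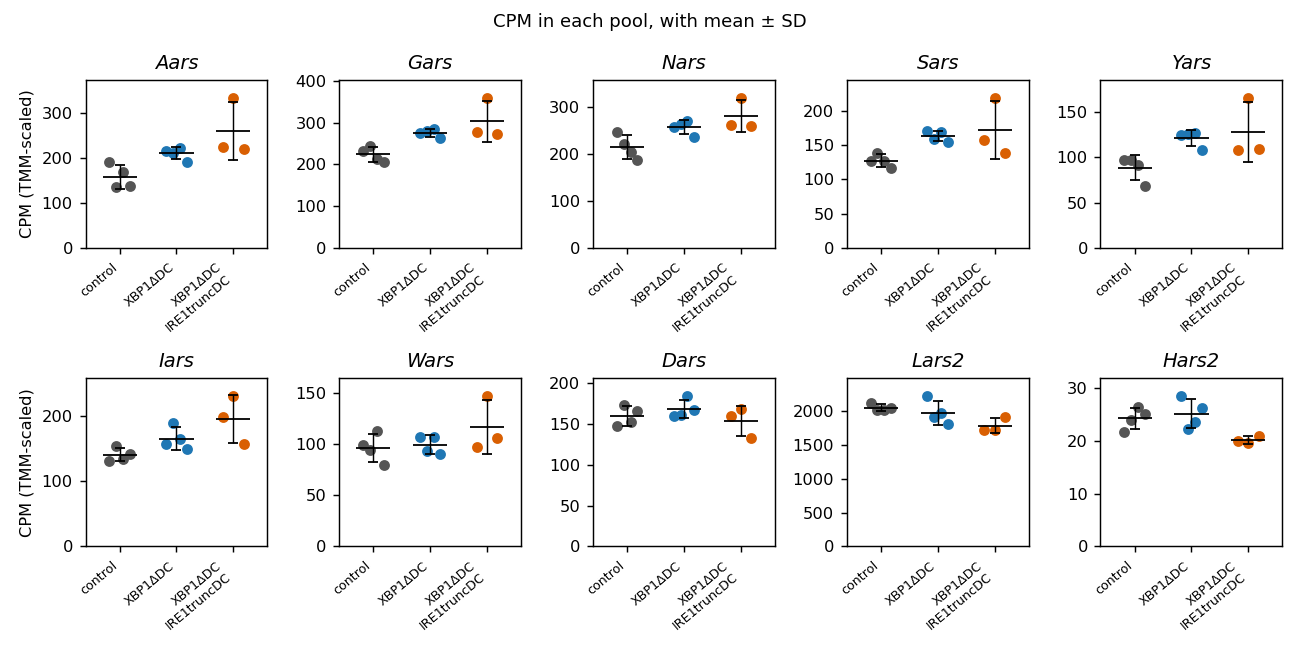
CPM (TMM-scaled) of 10 genes in each pool, with points for pools and bars for the mean ± SD of 4 control, 4 XBP1ΔDC and 3 XBP1ΔDCIRE1truncDC pools. *Gars*, *Sars*, *Yars* and *Aars* show XBP1ΔDC pools above all control pools, *Dars* shows overlapping groups, and XBP1ΔDCIRE1truncDC replicate 2 is the highest pool for 7 of the 10 genes.

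XBP1ΔDCIRE1truncDC, which lack the RNase domain of IRE1 as well, were compared with the same controls, so both deletions differ here. Of these controls only replicate 4 carried floxed *Ern1*. The median log2 deviation of the ATF4-target list from the control mean was -0.12 in that pool. It was 0.05, 0.05 and -0.04 in control replicates 1, 2 and 3. In XBP1ΔDCIRE1truncDC cDC1s 11 of the 20 cytosolic genes were higher at an unadjusted p under 0.05 and 0 were lower, where 5.73% of all genes were higher and 5.44% lower. The 11 were 11 of the 13 genes of the ATF4-target list, all but *Vars* and *Wars*. As stated above, that list was chosen with earlier results of these data known. The median log2 fold change was 0.37 for cytosolic genes, 0.43 for the ATF4-target list, 0.06 for the 7 other cytosolic genes, -0.02 for mitochondrial genes and 0.00 for all genes. edgeR called 0 of the 38 genes after adjustment, with 0.356% of all genes called, and so did limma voom. DESeq2 called 5 of them, *Aars*, *Gars*, *Iars*, *Nars* and *Cars*, with adjusted p of 0.00139, 0.00738, 0.0239, 0.0362 and 0.0492. Over all genes DESeq2 called 193 in this comparison, where edgeR called 39.

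*Aars*, the alanine enzyme, reached 226, 335 and 221 CPM in XBP1ΔDCIRE1truncDC, beside 192, 136, 168 and 138 CPM in control and 216, 212, 223 and 192 CPM in XBP1ΔDC, whose lowest pool barely exceeded the highest control. It had the largest difference and the smallest p of the group, a log2 fold change of 0.71 against control (SE 0.151, edgeR adjusted p = 0.0736). Exons of *Aars* (chr8:111033144-111057664) share 14.3% of their length with *Exosc6* on the same strand, so some reads could belong to either gene. *Gars* was at 276, 359 and 272 CPM in XBP1ΔDCIRE1truncDC, all above its 4 control values, with a log2 fold change of 0.43 (SE 0.0998, edgeR adjusted p = 0.103). *Iars*, the isoleucine enzyme, was at 132, 154, 135 and 141 CPM in control, at 157, 189, 165 and 149.9 CPM in XBP1ΔDC, and at 198, 230.3 and 156 CPM in XBP1ΔDCIRE1truncDC. Its log2 fold change was 0.47 (SE 0.122, edgeR adjusted p = 0.155), and the lowest XBP1ΔDCIRE1truncDC pool lay just above the highest control pool. The other 8 genes had log2 fold changes of 0.53 for *Yars*, 0.50 for *Cars*, 0.44 for *Mars* (methionine), 0.43 for *Sars*, 0.41 for *Lars* (leucine), 0.40 for *Eprs*, 0.39 for *Nars* and 0.35 for *Tars*. *Wars*, a gene also known to respond to interferon-γ, had 0.28 and *Vars* 0.04. Groups did not overlap for 9 cytosolic genes, 8 of the ATF4-target list and *Kars* (lysine), where 4.31% of all genes were higher without overlap.

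XBP1ΔDCIRE1truncDC replicate 2 stood above the other 2 pools of its group. The median deviation of the 20 cytosolic genes from the control mean was 0.65 on the log2 scale in replicate 2 and 0.15 and 0.13 in replicates 1 and 3, beside 0.16, 0.20, 0.29 and 0.14 in XBP1ΔDC replicates 1 to 4. XBP1ΔDC replicate 3, at 0.29, was also the pool with the highest summed macrophage markers, whose part in the result was not tested. All 20 cytosolic genes were above the control mean in replicate 2, against 16 in each of replicates 1 and 3. Its mitochondrial genes did not stand apart to the same extent, with a median deviation of 0.05 against -0.06 and -0.15. Without replicate 2 the median log2 fold change of cytosolic genes against control was 0.18 in place of 0.37. In that fit 8 of the 20 genes had an unadjusted p under 0.05, and the share of all genes was not computed. The log2 fold changes of *Cars*, *Eprs*, *Lars*, *Mars*, *Sars*, *Tars* and *Yars* were then between 0.15 (*Tars*) and 0.30 (*Yars*). The within-group SD of log2 CPM had a median of 0.28 over cytosolic genes in XBP1ΔDCIRE1truncDC, against 0.11 in control and 0.11 in XBP1ΔDC. For all genes tested it was 0.21, 0.19 and 0.20.

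**Figure D3:**
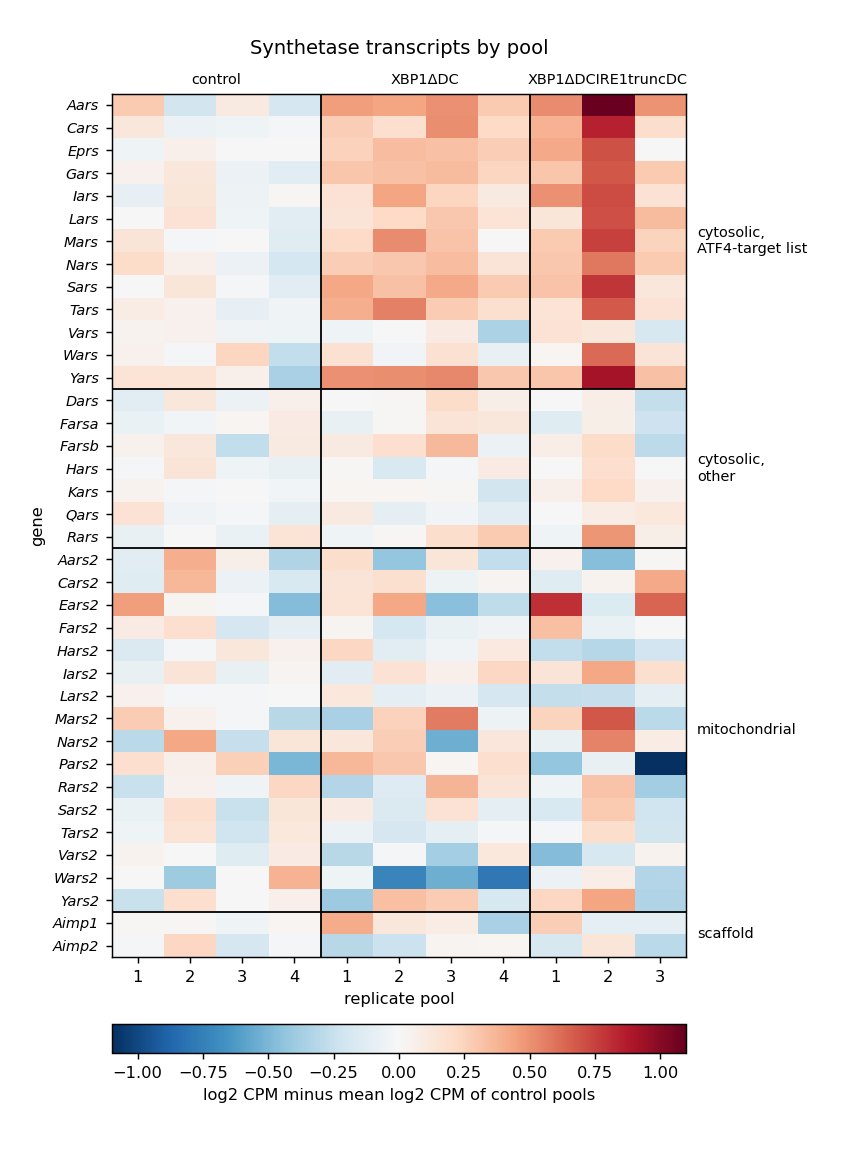
log2 CPM of the 38 genes (rows) in the 11 pools (columns, replicate numbers below), each minus the mean log2 CPM of the 4 control pools. Red marks most of the ATF4-target genes in XBP1ΔDC and XBP1ΔDCIRE1truncDC pools and is deepest in XBP1ΔDCIRE1truncDC replicate 2. *Vars*, *Wars* and the mitochondrial block are mixed.

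Marker genes of other cells also varied between pools, and their correlation with these values was not computed. Melanoma markers (6 genes, 3 of them above the filter) summed to 52.5 and 59.1 CPM in control replicates 3 and 4 and to 27.8 and 63.3 CPM in XBP1ΔDC replicates 3 and 4, and to 6.30 to 11.6 CPM in the other 7 pools. With their summed level as a covariate, the median of the cytosolic genes was 0.22 in XBP1ΔDC and 0.29 in XBP1ΔDCIRE1truncDC against control. Plasmacytoid dendritic cell markers (4 genes, 3 above the filter) summed to 38.8 to 47.7 CPM in control, 31.1 to 35.3 CPM in XBP1ΔDC and 22.5 to 38.6 CPM in XBP1ΔDCIRE1truncDC, lowest in replicate 2. The list was mixed: *Klk1* was at 0 in all pools, and *Tcf4*, over which the groups overlapped, was at 21.7 to 26.0 CPM in control and at 18.6 to 26.1 CPM in the other pools. *Siglech* was at 3.03 to 5.53 CPM in control and at 0 to 3.52 CPM in the other pools, and *Ccr9* at 14.02 to 17.45 CPM in control and at 2.89 to 13.4 CPM in the other pools. With this sum as a covariate, a fit added after the values were seen, the median of the cytosolic genes was 0.00 and 0.03 in the 2 comparisons. In this fit 0 and 1 of the 20 genes had an unadjusted p under 0.05, and the share of all genes was not computed. Since the plasmacytoid marker sum did not overlap between control and either line, its part and that of the genotype cannot be told apart.

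**Figure D4:**
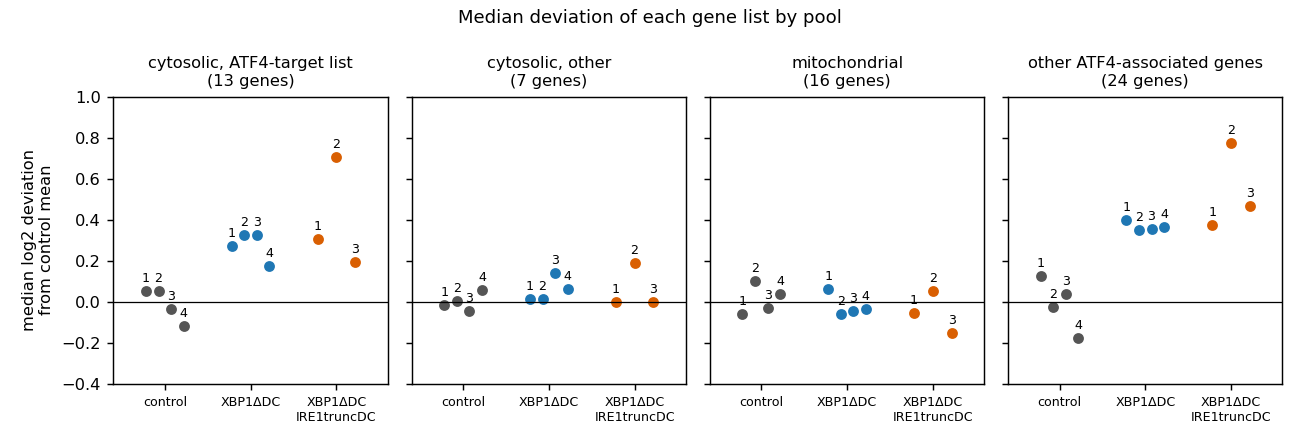
Median over each gene list of the log2 deviation from the control mean, one numbered point per pool, for the 13 cytosolic genes of the ATF4-target list, the 7 other cytosolic genes, the 16 mitochondrial genes and 24 other ATF4-associated genes. The first and last lists lie above all control pools in both lines, with XBP1ΔDCIRE1truncDC replicate 2 highest at 0.71 and 0.77.

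Whether both lines differ was tested directly. In XBP1ΔDCIRE1truncDC against XBP1ΔDC cDC1s edgeR called 0 of the 38 genes, where it called 0.0731% of all genes, and limma voom and DESeq2 also called 0. At an unadjusted p under 0.05, 0 cytosolic genes differed, and 2 mitochondrial genes were lower, where 2.5% of all genes were lower and 2.79% higher. These 2, *Hars2* and *Pars2*, were also lower without overlap, as were 2.96% of all genes, and *Kars* was higher without overlap, as were 3.11%. The median log2 fold change was 0.11 over cytosolic and 0.07 over mitochondrial genes. Without XBP1ΔDCIRE1truncDC replicate 2 these medians were -0.01 and -0.05. The missed threshold does not show equal levels: the 95% interval of the log2 fold change ran from -0.02 to 0.63 for *Aars* and from -0.29 to 0.27 for *Tars*. *Hars2*, the mitochondrial histidine enzyme, was at 21.7, 23.9, 26.4 and 25.0 CPM in control, at 28.4, 22.2, 23.6 and 26.1 CPM in XBP1ΔDC, and between 19.5 and 20.9 CPM in all 3 XBP1ΔDCIRE1truncDC pools. The last group lay below every other pool, and the log2 fold change was -0.32 against XBP1ΔDC (SE 0.121, edgeR adjusted p = 0.850). Its exons overlap those of *Hars* on the opposite strand by 195 bases, which counting without strand could not assign. *Pars2*, for proline, was at 5.68, 5.18, 5.97 and 3.48 CPM in control, at 6.43, 6.13, 5.05 and 5.67 CPM in XBP1ΔDC, and at 3.67, 4.70 and 1.56 CPM in XBP1ΔDCIRE1truncDC. Its log2 fold change was -0.81 against XBP1ΔDC (SE 0.340, edgeR adjusted p = 0.931), and it rested on as few as 36 counts in a pool. With 1 pool left out it ranged from -0.47 without XBP1ΔDCIRE1truncDC replicate 3 to -1.15 without replicate 2.

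Among mitochondrial genes, 3 of 16 had an unadjusted p under 0.05 in XBP1ΔDCIRE1truncDC against control, 1 higher and 2 lower, beside 5.73% and 5.44% of all genes. The same 3 genes, *Iars2*, *Lars2* and *Hars2*, were those without overlap between these groups, where 4.31% of all genes were higher and 5.81% lower without overlap. *Lars2* was at 2117, 2013, 2011 and 2040.0 CPM in control, at 2215, 1912, 1959 and 1801 CPM in XBP1ΔDC, and at 1709.6, 1716 and 1903 CPM in XBP1ΔDCIRE1truncDC. The last group lay below all control pools but overlapped XBP1ΔDC, with log2 fold changes of -0.20 against control (SE 0.0741, edgeR adjusted p = 0.319) and -0.15 against XBP1ΔDC (edgeR adjusted p = 0.967). *Hars2* had a log2 fold change of -0.27 and *Iars2*, for isoleucine, of 0.25 against control, the latter 0.16 without XBP1ΔDCIRE1truncDC replicate 2. Exons of *Iars2* overlap *Rab3gap2* on the opposite strand over 22.9% of their length. The groups of the 3 scarcest genes overlapped. *Mars2* was at 7.04, 5.96, 5.68 and 4.64 CPM in control, at 4.48, 6.90, 8.61 and 5.55 CPM in XBP1ΔDC, and at 6.84, 9.32 and 4.69 CPM in XBP1ΔDCIRE1truncDC. *Nars2* was at 5.51, 9.18, 5.68 and 7.45 CPM in control, at 7.43, 8.23, 4.67 and 7.41 CPM in XBP1ΔDC, and at 6.41, 9.97 and 7.21 CPM in XBP1ΔDCIRE1truncDC. *Wars2* was at 5.89, 4.48, 5.89 and 7.72 CPM in control, at 5.71, 3.52, 4.02 and 3.38 CPM in XBP1ΔDC, and at 5.63, 6.20 and 4.69 CPM in XBP1ΔDCIRE1truncDC. *Wars2* had the lowest log2 fold change of the 38 genes in XBP1ΔDC, -0.53 (SE 0.247, edgeR adjusted p = 0.664).

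**Figure D5:**
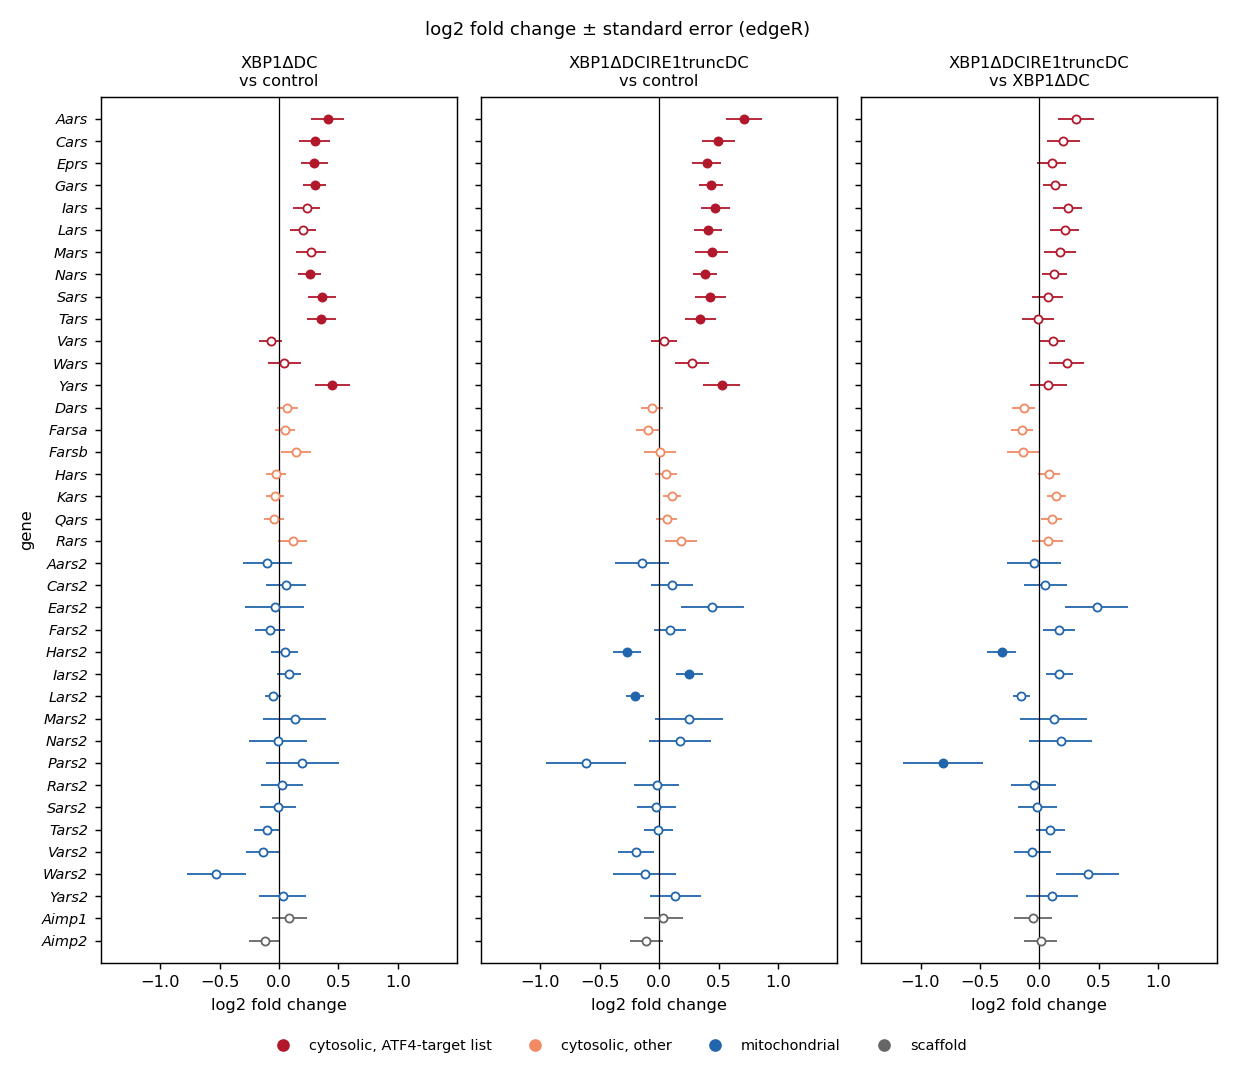
log2 fold change of each gene in the 3 comparisons, with bars for the standard error from edgeR and filled points for an unadjusted p under 0.05. Filled points are 8 cytosolic genes of the ATF4-target list in XBP1ΔDC, 11 such genes with *Lars2*, *Hars2* and *Iars2* in XBP1ΔDCIRE1truncDC against control, and *Hars2* and *Pars2* between both lines.

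Cytosolic enzymes also differ in assembly. Of the 20, 8 (*Dars*, *Eprs*, *Iars*, *Kars*, *Lars*, *Mars*, *Qars* and *Rars*) belong to the multi-tRNA synthetase complex held together by the scaffold proteins of *Aimp1* and *Aimp2* and by that of *Eef1e1*. Their median log2 fold change was 0.16 in XBP1ΔDC and 0.29 in XBP1ΔDCIRE1truncDC against control, with 1 and 4 genes higher at an unadjusted p under 0.05, each in the ATF4-target list, beside 2.67% and 5.73% of all genes. The complex thus held genes of both kinds, for instance *Iars* at 0.47 and *Dars*, the aspartate enzyme, at -0.06 in XBP1ΔDCIRE1truncDC. *Aimp1* was at 25.3, 25.3, 24.4 and 25.5 CPM in control, at 33.4, 27.3, 26.7 and 19.6 CPM in XBP1ΔDC, and at 30.4, 23.4 and 23.5 CPM in XBP1ΔDCIRE1truncDC. *Aimp2* was at 37.9, 45.0, 33.9 and 38.0 CPM in control, at 31.2, 32.7, 39.3 and 39.2 CPM in XBP1ΔDC, and at 34.1, 42.2 and 31.4 CPM in XBP1ΔDCIRE1truncDC. For both scaffold genes all groups overlapped, with log2 fold changes of 0.09 and -0.12 in XBP1ΔDC and 0.04 and -0.11 in XBP1ΔDCIRE1truncDC. *Aimp2* shares 29.4% of its exon length with *Eif2ak1* on the opposite strand. *Eef1e1* was at 32.1 to 37.0 CPM in control, 33.4 to 42.1 CPM in XBP1ΔDC and 29.9 to 38.8 CPM in XBP1ΔDCIRE1truncDC.

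Other genes known to be ATF4-associated were examined as a list of 25, of which 24 were tested. In XBP1ΔDC against control 11 were higher and 1 lower at an unadjusted p under 0.05, beside 2.67% and 4.95% of all genes, and in XBP1ΔDCIRE1truncDC 17 were higher and 1 lower, beside 5.73% and 5.44%. Their median log2 fold change was 0.34 and 0.55. *Atf4* itself was at 169, 146, 130.2 and 125 CPM in control, at 186, 164, 181 and 197 CPM in XBP1ΔDC, and at 172, 192 and 162 CPM in XBP1ΔDCIRE1truncDC, with log2 fold changes of 0.35 and 0.30 (edgeR adjusted p = 0.235 and 0.319). *Ddit3*, which encodes the stress factor CHOP, was at 8.07 to 9.24 CPM in control, 12.0 to 16.1 CPM in XBP1ΔDC and 12.3 to 21.1 CPM in XBP1ΔDCIRE1truncDC. Its log2 fold changes were 0.67 (SE 0.181) and 0.85 (SE 0.193), neither past the adjusted threshold, and its exons share 68 bases with *Mars* on the opposite strand.

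Of this list, 3 genes passed the adjusted threshold in XBP1ΔDCIRE1truncDC against control, where 0.356% of all genes passed in either direction. *Asns*, which makes asparagine, was at 7.25, 8.66, 10.4 and 3.57 CPM in control, at 25.0, 20.7, 20.3 and 16.9 CPM in XBP1ΔDC, and at 18.7, 41.3 and 19.7 CPM in XBP1ΔDCIRE1truncDC. *Asns* rose by 1.83 on the log2 scale in XBP1ΔDCIRE1truncDC (SE 0.334, edgeR adjusted p = 0.0396), and its log2 fold change in XBP1ΔDC was 1.47 (edgeR adjusted p = 0.0522). *Trib3*, a pseudokinase that limits ATF4 activity, rose by 2.55 (edgeR adjusted p = 0.0396), from 1.79 to 3.56 CPM in control to 8.01, 32.2 and 7.61 CPM. *Eif4ebp1*, a repressor of cap-dependent translation, rose by 0.64 (edgeR adjusted p = 0.0312), from 50.8 to 64.2 CPM in control to 79.8, 106 and 82.3 CPM. With each of the 11 pools left out in turn, *Asns* passed in 1 fit, *Trib3* in 2 and *Eif4ebp1* in 3. Without XBP1ΔDCIRE1truncDC replicate 2 the log2 fold changes were 1.36 for *Asns*, 1.53 for *Trib3* and 0.50 for *Eif4ebp1*, with edgeR adjusted p of 0.114, 0.0785 and 0.0790. *Eif2ak3*, the gene of PERK, fell by 0.71 in XBP1ΔDC (edgeR adjusted p = 0.0151), from 42.9 to 52.2 CPM in control to 23.4 to 34.7 CPM, and was at 36.6 to 40.2 CPM in XBP1ΔDCIRE1truncDC. The call for *Eif2ak3* held in 8 of the 11 fits and was lost, at an edgeR adjusted p of 0.0542, 0.0554 and 0.0652, without control replicate 1, control replicate 3 or XBP1ΔDC replicate 3.

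Genes of other steps of translation were examined as 3 further lists. At an unadjusted p under 0.05, 2.67% of all genes were higher and 4.95% lower in XBP1ΔDC against control. The shares were 5.73% and 5.44% in XBP1ΔDCIRE1truncDC against control, and 2.79% and 2.5% between the 2 lines. Among 8 genes of tRNA handling and related enzymes, with median log2 fold changes of 0.12 and 0.09, 0 and 1 had an unadjusted p under 0.05 against control in XBP1ΔDC and XBP1ΔDCIRE1truncDC, the latter *Gatb*, a subunit of the mitochondrial glutamine amidotransferase, with a log2 fold change of 0.46 (edgeR adjusted p = 0.402). *Xpot*, the tRNA exporter, had log2 fold changes of 0.16 and 0.31 (edgeR adjusted p = 0.940 and 0.529). Among 5 cytosolic elongation factor genes, *Eef1g* alone reached the unadjusted threshold, with -0.21 in XBP1ΔDC (edgeR adjusted p = 0.377). Medians of the 5 genes were -0.05 and -0.06. The 8 genes of mitochondrial translation factors had medians of 0.06 and 0.05 with 0 genes at the unadjusted threshold, the smallest p being those of *Gfm2* in XBP1ΔDC (0.40, edgeR adjusted p = 0.663) and *Mtif3* in XBP1ΔDCIRE1truncDC (0.25, edgeR adjusted p = 0.664). In XBP1ΔDCIRE1truncDC against XBP1ΔDC the smallest p of these 3 lists belonged to *Qrsl1* (0.26), *Eef1g* (0.12) and *Tufm* (-0.14), none with an unadjusted p under 0.05.

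Genes known to respond to interferon-γ, a list of 13 examined because *Wars* is among such genes, also varied between pools. Their median deviation from the control mean was 0.24, -0.62, 0.41 and -0.21 on the log2 scale in control, 1.08, 0.07, 0.73 and -0.24 in XBP1ΔDC, and 0.31, 1.49 and 0.52 in XBP1ΔDCIRE1truncDC. Replicate 2 of XBP1ΔDCIRE1truncDC was highest for these genes as for the cytosolic synthetases, and the part of the one in the other was not tested. At an unadjusted p under 0.05, 0 were higher in XBP1ΔDC and 6 in XBP1ΔDCIRE1truncDC against control, beside 2.67% and 5.73% of all genes, led by *Irf1* with a log2 fold change of 0.87 (edgeR adjusted p = 0.238). The gene with the smallest p in XBP1ΔDC was *Gbp2*, at 0.86 (edgeR adjusted p = 0.663), and that between the 2 lines was *Gbp7*, at 0.73 (edgeR adjusted p = 0.967).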

How the data were processed

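RNA was measured by SMART-seq with single-end reads in sorted tumor cDC1s. Per the submitters' processing notes and the study's methods, the authors trimmed reads with Trimmomatic 0.39, checked them with FastQC 0.11.8, aligned them to mm10 with STAR 2.7.3a and deposited raw counts per gene made with HTSeqCount. The annotation and the strand setting are not given in the sources used here. The authors also deposited a normalized table of log2 values made with limma 3.42.2, and a rebuild as log2 CPM with TMM scaling differed from it by at most 4.97e-14.

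Counts of the 11 pools were tested here with edgeR 4.0.16 in R 4.3.3, by the quasi-likelihood test on all 3 groups together, for genes above 1 CPM in at least 4 pools, with Benjamini-Hochberg adjustment over all 10951 genes. The log2 CPM per pool, used for deviations and SDs, had a prior count of 2. limma 3.58.1 (voom) and DESeq2 1.42.0 served as alternatives, beside other scalings and filters, fits to the groups compared alone, a replicate block and leaving out each pool. The script was tested on simulated data. Pools are separate groups of mice. Members and lists were chosen with earlier results of these data known, and no test was made over a list. Values in every pool are given for the 3 members with the smallest p in each comparison, the 3 highest and 3 lowest per kilobase in control, and both scaffold genes. Exon lengths, gene positions and overlaps came from GENCODE on GRCm38, and promoters from RefSeq.

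Same-numbered replicates did not deviate together (mean correlation of deviations -0.03 over 10 pairs, from -0.26 to 0.13), so they were not treated as paired. Depth was 21089065 to 26843486 counts per pool, and at 36 counts a gene such as *Pars2* is measured with far less precision than the abundant cytosolic genes.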

Additional observations from a re-analysis of the deposited data

Results flagged for a closer look

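Of 76 groups of 4 pools examined for a single pool far from the rest, 3 held one, where chance gives about 1 in 20. *Kars* was at 97.7 CPM in XBP1ΔDC replicate 4, below the other 3 pools of its group. *Yars* was at 108 CPM in XBP1ΔDC replicate 4, again the lowest of its group. *Cars2*, the mitochondrial cysteine enzyme, was at 15.99 CPM in control replicate 2, above the other 3 controls.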

How the results depend on the processing

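Each comparison was recomputed under 23 alternatives, 11 of which left out 1 pool. Where a value moved, the cause was not tested. The share of all genes at an unadjusted p under 0.05 was not computed for these alternatives. Depth limits the scarce mitochondrial genes most.

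With DESeq2, 5 synthetases were called in XBP1ΔDCIRE1truncDC against control, among 193 genes called in all. With 1 pool left out the calls ranged from 0 to 1 in both comparisons with control. *Sars* was called in XBP1ΔDC without XBP1ΔDCIRE1truncDC replicate 2, among 110 genes called in all. *Eprs* was called in XBP1ΔDCIRE1truncDC without its replicate 3, among 19 genes called in all. Between the 2 lines 0 synthetases were called under all alternatives.

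Fits chosen after seeing the data used a newer quasi-likelihood method, the genes of the authors' normalized table, or summed markers as a covariate. With the plasmacytoid marker covariate the cytosolic genes at an unadjusted p under 0.05 numbered 0, 1 and 1 in XBP1ΔDC against control, XBP1ΔDCIRE1truncDC against control and between the 2 lines, with medians of 0.00335 and 0.0343 against control. The mitochondrial medians were then -0.162 in XBP1ΔDCIRE1truncDC against control and -0.011 between the 2 lines, and *Cars* (-0.00500, XBP1ΔDC) and *Eprs* (-0.00957, XBP1ΔDCIRE1truncDC) changed sign. Mitochondrial genes at that threshold numbered 1 in XBP1ΔDC with DESeq2, the newer method or the plasmacytoid covariate, 1 in XBP1ΔDCIRE1truncDC against control with the melanoma covariate, and 1 between the 2 lines with only those groups fitted.

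With 1 pool left out, mitochondrial genes at that threshold ranged from 0 to 1, from 1 to 3 and from 1 to 2 in the 3 comparisons, and cytosolic genes between the 2 lines from 0 to 4. The cytosolic median in XBP1ΔDCIRE1truncDC against control ranged from 0.185 without its replicate 2 to 0.436. The mitochondrial median ranged from -0.0734 to 0.0754 there and from -0.0456 to 0.145 between the 2 lines. Between the 2 lines *Asns* ranged from -0.115 to 0.556, *Trib3* from -0.0706 to 1.29 and *Ddit3* from -0.0975 to 0.326, each below 0 without XBP1ΔDCIRE1truncDC replicate 2, and *Atf4* from -0.123 to 0.00216. Coding transcript lengths gave medians of 34.4 and 7.47 CPM per kilobase.

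With the replicate block, which the data did not support as a pairing, 9 and 11 cytosolic genes had an unadjusted p under 0.05 against control, with medians of 0.218 and 0.314, and 1 mitochondrial gene differed between the 2 lines.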
